A study of Mus musculus with 6 samples.

Results

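Epicardial mesothelial cells were described in 3 single-cell RNA libraries of the mouse heart. A cell was counted as a member when it carried at least 500 genes, at most 10% mitochondrial UMIs (unique molecular identifiers, 1 per captured transcript), a UMI of at least 3 of the 7 genes Msln, Upk3b, Krt19, Krt8, Nkain4, Gpm6a and Upk1b, and no UMI of Cdh5 (endothelial cells) or Ptprc (blood cells). The rule found 1513 members among 30267 heart cells that passed the quality limits, and among 37323 cells in all 6 libraries of heart and brain. Members were chosen by the measured UMIs of the 7 rule genes, so their levels and those of any gene that goes with them are descriptions.

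All cells came from Tbx18CreER/+;Rosa26tdT/+ mice, in which tamoxifen lets Cre recombinase made from the Tbx18 locus switch on the red fluorescent protein tdTomato. Tamoxifen was injected into the peritoneum on 4 days, and a week without the drug followed. The sham library came from ventricles of animals with sham surgery, and the infarct and peri-infarct libraries from hearts in which the left anterior descending coronary artery had been ligated. Atria were removed, the tissue was digested with collagenase and dispase, and tdTomato-positive cells were sorted. The controls carry the same alleles and tamoxifen treatment as the injured animals. The label marks cells in which Tbx18 was active during tamoxifen treatment and is passed on to their progeny, whether or not these express Tbx18. Unlabelled epicardium is outside the sort. Strain background beyond these alleles, age, sex, time after injury and animals per library are not given in the sources used here.

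The epicardium is a single layer of mesothelial cells on the surface of the heart. Mesothelial cells carry keratins, apical mucins and the surface glycoprotein mesothelin, and they make a slippery lining. In the embryo the epicardium expresses the transcription factors Wt1, Tbx18 and Tcf21 and the retinoic acid enzyme Aldh1a2, and it gives rise to cardiac fibroblasts and mural cells. In the adult it is known to proliferate and to switch embryonic genes back on after infarction.

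Each heart library is 1 sample, so no test between samples was possible and no p-value is given. Sham had 17951 barcodes and 32194158 UMIs, infarct 9470 barcodes and 107892408 UMIs, and peri-infarct 9580 barcodes and 95248788 UMIs. Sham was the shallow library: its members had a median of 1459 UMIs, against 19151 in infarct and 21139 in peri-infarct. Sham endothelial-like cells also carried more transcripts of other cell types. Cells were thinned to 1000 UMIs, and cells with fewer were left out. A UMI of the fibroblast gene Dcn was then found in 85.8% of sham endothelial-like cells, 12.96% of infarct and 13.3% of peri-infarct endothelial-like cells. Levels below are CPM (counts per 1000000 UMIs of the summed cells), with exact Poisson 95% intervals that cover counting error only. A gene was compared when the mean CPM of both sums was at least 50, and called higher or lower at 2-fold or more of (CPM + 1). The share of genes called is given with each main comparison, and most counts under alternative settings stand without it.

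Msln, which encodes mesothelin, lies on the minus strand of chromosome 17 (25748613 to 25754378, mm10). Upk3b, a uroplakin of the apical membrane, lies on chromosome 5 (136038496 to 136046487, plus strand), and Krt19, a keratin, on chromosome 11 (100140810 to 100148665, minus strand). Wt1 lies on chromosome 2 (105126529 to 105173616, plus strand). Of the genes outside the rule, Lrrn4, a leucine-rich repeat membrane protein, Muc16, the apical mucin also known as CA125, and Krt18, the filament partner of Krt8, were the 3 with the largest smallest ratio of members to other cells over the 3 libraries. Their promoters are shown because these genes were high together in members of every library. Each run ends at the gene's start, 5′ to 3′ on the gene's strand (RefSeq, GRCm38.p6, the assembly of mm10), and matches to the TEAD motif GGAATG are in capitals.
Lrrn4, chr2:132880892-132881112, minus strand: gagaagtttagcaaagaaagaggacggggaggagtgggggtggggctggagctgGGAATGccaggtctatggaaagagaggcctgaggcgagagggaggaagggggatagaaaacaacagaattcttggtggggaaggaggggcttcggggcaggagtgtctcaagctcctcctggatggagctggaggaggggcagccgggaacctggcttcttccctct
Muc16, chr9:18674604-18674853, minus strand: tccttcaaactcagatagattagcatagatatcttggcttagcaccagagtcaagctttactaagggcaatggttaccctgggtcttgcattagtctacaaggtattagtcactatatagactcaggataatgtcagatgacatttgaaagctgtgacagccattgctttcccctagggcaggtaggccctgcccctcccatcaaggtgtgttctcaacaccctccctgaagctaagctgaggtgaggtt
Krt18, chr15:102027966-102028179, plus strand: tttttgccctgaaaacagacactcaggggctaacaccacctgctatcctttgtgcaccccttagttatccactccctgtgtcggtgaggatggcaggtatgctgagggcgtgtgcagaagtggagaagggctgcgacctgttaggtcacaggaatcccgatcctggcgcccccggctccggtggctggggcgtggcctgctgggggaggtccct
The Lrrn4 run of 221 bases holds 1 match, and the Muc16 run of 250 bases and the Krt18 run of 214 bases hold none. Among 84 genes outside the rule that were higher in members of all 3 libraries, 62 had a RefSeq promoter window. GGAATG or its reverse complement CATTCC was in 9 of these 62 windows (14.5%), against 12.6% of all 27025 windows of the same length. The GATA motif AGATAA or TTATCT was in 1 of the 62 (1.61%), against 10.3% of all windows. The 2 motifs do not overlap each other, and a match or its absence is a description of these windows only.

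Members were found in all 3 libraries as a small share of cells. Sham held 633 members of 13630 cells, or 4.64% (exact binomial 95% interval 4.30 to 5.01). Infarct held 583 of 8681, or 6.72% (6.20 to 7.26). Peri-infarct held 297 of 7956, or 3.73% (3.33 to 4.17). Sham thus held 41.8% of all members, infarct 38.5% and peri-infarct 19.6%. The shares changed with thinning. Cells were thinned to 1000 UMIs before the rule was applied, and cells with fewer UMIs were left out. Members were then 3.11% of the remaining sham cells, 2.73% of those in infarct and 2.76% of those in peri-infarct. Of the members counted before thinning, 129 in sham and 0 in each injury library had fewer than 1000 UMIs. The sort, the shallower sham cells and 1 library per group all stand beside these shares, and their part was not tested.

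The threshold lay in a different place in each library. In sham 488 cells had 2 rule markers and 311 had 3, in infarct 187 and 106, and in peri-infarct 32 and 13. Most sham members lay near the threshold, with all 7 markers in 29 cells (4.58% of members). In infarct 305 members (52.3%) had all 7, and in peri-infarct 227 (76.4%). Depth differed as well, with member medians of 1459, 19151 and 21139 UMIs in sham, infarct and peri-infarct. When cells were thinned to 1000 UMIs before the rule, few members of any library had all 7, at the shares given further below. The part of depth in these marker numbers was not tested. Cells that met the marker rule but held a Cdh5 or Ptprc UMI numbered 49 in sham, with 7 in infarct and 9 in peri-infarct.

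**Figure D1:**
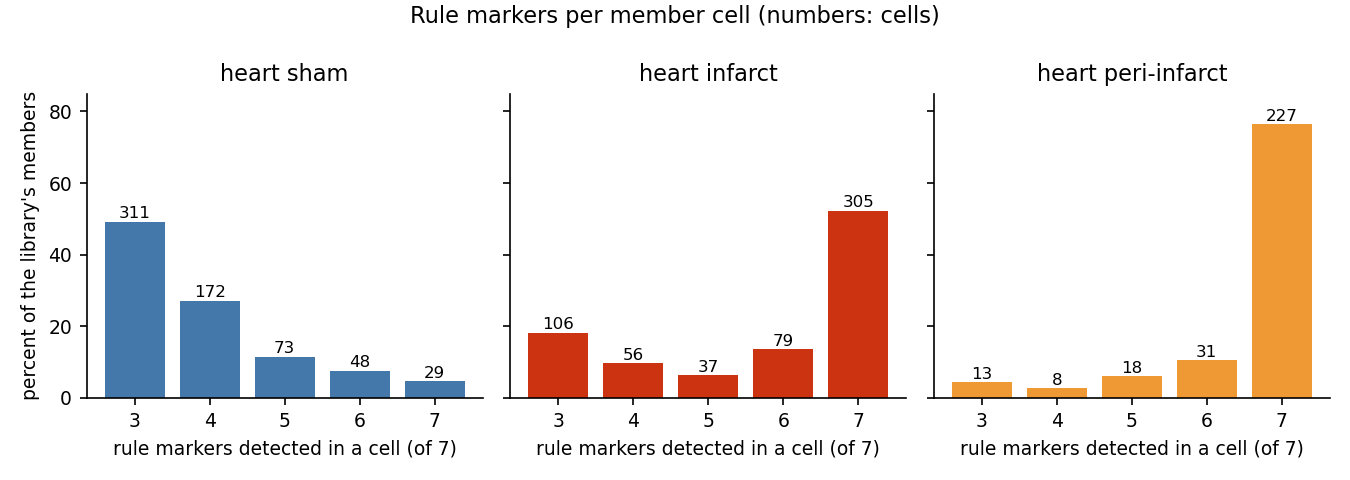
Percent of each library's members (y axis) by the number of the 7 rule markers detected in the cell (x axis), with cell numbers above the bars. Sham members pile up at 3 markers (311 cells), and the members of both injury libraries at 7 (305 and 227 cells). Cells were not thinned here, and member medians were 1459, 19151 and 21139 UMIs in sham, infarct and peri-infarct.

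Clusters of all genes, the rule genes included, show where the members lie and are a description only. Of sham members, 590 (93.2%) lay in a cluster that markers name mesothelial-like, led by Fgfbp1, Npr3, Wfdc2 and Upk3b. In peri-infarct, 243 (81.8%) lay in a second mesothelial-like cluster, led by Dmkn, Msln and Lgals7. In infarct 357 (61.2%) did, while 171 (29.3%) lay in a cluster that stayed unnamed, led by Col6a5, Clu, Wnt4 and Saa3, and 51 (8.75%) in an unnamed cluster led by histone and cell division genes. The first mesothelial-like cluster is almost wholly sham and the second almost wholly infarct and peri-infarct, so a cluster and its library cannot be told apart. Doublet calls were 8.21% of sham members and 4.39% of other sham cells, 4.12% and 2.49% in infarct, and 1.01% and 3.46% in peri-infarct. Sham and infarct shared 69 barcodes, sham and peri-infarct 69, and infarct and peri-infarct 147; 1 barcode was a member in both sham and peri-infarct.

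The rule was also strict in sham. The sham mesothelial-like cluster held 1407 cells, of which the rule took 41.9%. Cells of the mesothelial-like clusters in sham that failed the rule were shallower, with a median of 1152 UMIs against 1424, and 86 of 817 failed through a Cdh5 or Ptprc UMI. They carried Lrrn4 at 118 CPM, against 375 CPM in the cluster's members and 9.04 CPM in all sham nonmembers. Wt1 was at 64.9 CPM in them and 133 CPM in the cluster's members.

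In the sham library, most genes called in members against other cells were higher. Of 3119 genes compared, 169 were higher (5.42%) and 19 lower (0.609%). This split was not seen in the injury libraries, with 195 higher and 237 lower in infarct and 267 and 342 in peri-infarct. Sham cells carried more transcripts of other cell types, and the part of these in the split was not tested. The list of mesothelial genes outside the rule held 19 compared genes, and 16 were higher and none lower, with a median log2 ratio of 3.23 against -0.03 over all genes compared. Keratin and epithelial junction genes were higher in 6 of 8. Basement membrane genes were neither higher nor lower in any of 14, and of 34 collagen and matrix genes only Efemp1 and Timp2 were higher.

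Lrrn4, Muc16 and Krt18 had high ratios in sham. Lrrn4 was at 345 CPM in sham members (313 to 379.5) and 9.04 CPM in other sham cells. Muc16 was at 384 CPM (349.5 to 420.1) and 11.4 CPM. Krt18 was at 204 CPM (179 to 231) and 6.49 CPM. The log2 ratios of members to other cells were 5.11, 4.95 and 4.77 in this order. Sham endothelial-like cells, which should lack them, were at 2.92, 4.87 and 3.89 CPM. After thinning to 1000 UMIs, a Muc16 UMI was found in 22.4% of sham members and 0.633% of sham endothelial-like cells (29.4% and 0.784% before thinning, at median depths of 1459 and 1354 UMIs). Krt7, another simple keratin, was at 105 and 3.00 CPM in members and other cells. Cldn15, a tight junction claudin, was at 280.5 and 13.1 CPM, and Ezr, the ezrin that ties microvilli to actin, at 475 and 44.7 CPM.

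Other genes with high ratios had varied roles. The chloride and bicarbonate exchanger Slc26a3 was at 140.2 CPM in members and 4.03 CPM in other sham cells. The zinc transporter Slc39a8 was at 254 and 9.53 CPM. The iron reductase Cybrd1 was at 108 and 3.58 CPM. Among receptors, the interleukin 18 receptor chain Il18r1 was at 125 and 3.58 CPM, the natriuretic peptide clearance receptor Npr3 at 229 and 9.31 CPM, and the coxsackievirus and adenovirus receptor Cxadr at 133 and 3.98 CPM. Fgfbp1, a carrier of fibroblast growth factors, was at 267 and 10.6 CPM. Bst1, a surface enzyme that makes cyclic ADP-ribose, was at 197 and 8.24 CPM, and Tm4sf5, a membrane protein of the tetraspan kind, at 204 and 7.83 CPM. Pkhd1l1, a large membrane protein, was at 314 and 12.8 CPM, and Prph, the intermediate filament peripherin, at 304 and 12.9 CPM.

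Of 11 compared transcription factors of the epicardial list, Wt1 and Sox6 were higher in sham members. Wt1 was at 123 CPM (104 to 144) against 12.6 CPM in other cells and 30.9 CPM in endothelial-like cells. Sox6 was at 70.9 and 30.03 CPM. Tbx18, whose locus drives the label in every sorted cell, was at 75.1 CPM in members and 23.2 CPM in other cells, and its mean fell short of the 50 CPM needed for a call. Bnc1, a zinc finger factor of mesothelium, was at 58.6 CPM and 1.61 CPM, also below that mean. Tcf21, which in the adult heart marks fibroblasts, was at 80.8 CPM in members, 142 CPM in other cells and 220.2 CPM in fibroblast-like cells.

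Retinoid and secreted signalling genes set the members apart as well. Aldh1a2, which makes retinoic acid, was at 227 CPM (201 to 255) in members and 23.3 CPM in other cells. Rarres2, which encodes the chemoattractant chemerin, was at 7133 and 884 CPM. These were the 2 higher genes of 5 compared in the retinoid list. Of 15 growth factor and guidance genes, Rspo1, Sema3d, Sema3c, Wnt5a and Slit3 were higher. Rspo1, an R-spondin that strengthens Wnt signalling, was at 212 and 15.1 CPM. Sema3d, a semaphorin, was at 208 and 20.7 CPM, and Wnt5a at 89.9 and 22.8 CPM. The insulin-like growth factor binding protein Igfbp5 was at 5258 CPM in members and 558 CPM in other cells, the highest level among these secreted proteins after Rarres2.

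Of 15 complement and defence genes, C2, C3, Bst2 and Il33 were higher and the chemokine Ccl7 was lower. C3, the central complement protein, was at 2288 CPM (2204 to 2375) in sham members, 287 CPM in other sham cells and 164 CPM in endothelial-like cells. Il33, an alarm cytokine held in the nucleus, was at 85.8 and 31.6 CPM.

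The 10 genes with the lowest ratios were Cldn5, Cxcl14, Ccl7, Egfl7, Srgn, Apold1, Comp, Ptprb, Sept4 and Flt1. Cldn5, an endothelial claudin, was at 39.6 CPM in members and 124 CPM in other cells, and Cxcl14, a fibroblast chemokine, at 41.2 and 112 CPM. Several of these belong to endothelial cells, which the rule removes through Cdh5. Against fibroblast-like cells alone, Cldn5 stood at a log2 ratio of 1.28, Flt1 at 1.12, Egfl7 at 0.93, Ptprb at 0.93, Srgn at 0.81 and Apold1 at 0.10, so the direction of these 6 turned with the cells they were set against.

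Fibroblast-like cells were the most numerous neighbours in sham, and 3106 genes could be set against them. Members were higher in 179 (5.76%) and lower in 56 (1.8%). The mesothelial list outside the rule was higher in 18 of 19, with a median log2 ratio of 3.55. Of 15 fibroblast markers, 7 were lower in members, among them Pdgfra, the platelet-derived growth factor receptor alpha, at 105 CPM in members and 288 CPM in fibroblast-like cells. Dpep1 was at 115 and 326 CPM. No fibroblast marker was at 0 in members: their summed level was 26256 CPM in sham members, 48025 CPM in fibroblast-like cells and 19686 CPM in endothelial-like cells of that library.

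**Figure D2:**
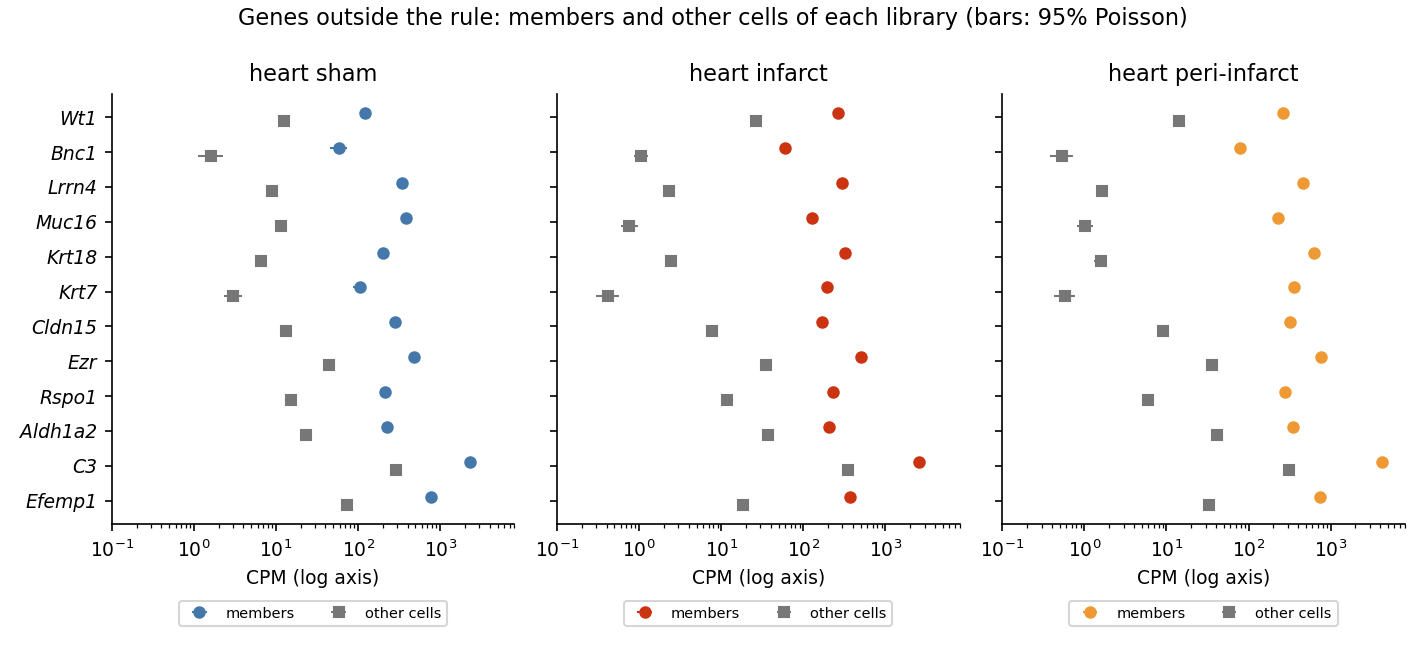
CPM (x axis, log) of 12 genes outside the rule in members (circles) and other cells (squares) of each heart library, with 95% Poisson intervals as bars. Members lie to the right of the other cells for each gene in all 3 panels, for example for Krt7 at 105 and 3.00 CPM in sham. All genes but Bnc1 belong to the set called higher in members of all 3 libraries, so for them this direction follows from their choice.

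The same comparison was made within each injury library. In infarct, 3017 genes were compared, and members were higher in 195 (6.46%) and lower in 237 (7.86%). In peri-infarct, 3172 genes were compared, with 267 higher (8.42%) and 342 lower (10.8%). The mesothelial list outside the rule was higher in 19 of 20 genes in infarct (median log2 ratio 3.71) and in 20 of 21 in peri-infarct (4.43). Krt7 was at 194 CPM in infarct members and 0.418 CPM in other infarct cells, and at 358 and 0.582 CPM in peri-infarct. Postn, a matrix protein of activated fibroblasts, was at 276 CPM in infarct members and 2751 CPM in other infarct cells, and at 159.7 and 1588 CPM in peri-infarct. Basement membrane genes were lower in 7 of 14 genes in infarct and 9 of 15 in peri-infarct, and higher in none. The other cells of these libraries carried the macrophage lysozyme gene Lyz2 at 479 and 402 CPM, while members were at 4.81 and 3.89 CPM. The cells set against members differed between libraries: in sham they held 817 cells of the mesothelial-like clusters that failed the rule, against 4 in infarct and 6 in peri-infarct. Lrrn4 was at 9.04 CPM in all other sham cells and 2.70 CPM in sham fibroblast-like cells.

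A set of 91 genes was higher in members of every library, among 2510 genes compared in all 3. They were 53.8% of all genes higher in sham members, and 46.7% and 34.1% of those higher in infarct and peri-infarct members. Not all of those higher genes were compared in every library: 123, 138 and 172 were. Of the 91 genes, 7 were the rule genes and 84 lay outside it. Lower in members of every library were 4 genes. Among genes compared in all 3, 5 were lower in sham members, 187 in infarct members and 269 in peri-infarct members. After Lrrn4, Muc16 and Krt18, the outside set was led by Cxadr, Krt7, Pkhd1l1, Prph, Tmem151a, Cldn15, Smpd3, C2, Rspo1, Hpgd, Ptgs1, Ezr and Efemp1. Rspo1 stood at 212, 229.6 and 275 CPM in sham, infarct and peri-infarct members, and at 15.1, 11.9 and 5.91 CPM in the other cells. Aldh1a2 stood at 227, 208 and 347 CPM in members and 23.3, 37.03 and 41.8 CPM in other cells. Wt1 stood at 123, 261 and 261 CPM in members and 12.6, 26.5 and 14.2 CPM in other cells. Rspo1, Aldh1a2 and Wt1 belong to the set chosen as higher in members of every library, so their direction follows from that choice. Sulf1 and Gata6 show that not all mesothelial or epicardial genes were called in every library. Gata6, a zinc finger factor, was higher in infarct (316 against 126 CPM) and peri-infarct (277 against 99.3 CPM) and not called in sham (129 against 77.5 CPM). Sulf1, an enzyme that trims heparan sulfate, was at 662, 179 and 322 CPM in members and 107, 139.9 and 142 CPM in other cells, and was not called in infarct. Whether such contrasts differ between libraries was not tested.

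Members differed among themselves, and in infarct they did so at similar median depth. Infarct members with 3, 4, 5, 6 and 7 rule markers had median depths of 18734.5, 18766, 18790, 17804 and 20245 UMIs. Wt1 was nearly level across these bins, at 245.4 CPM with 3 markers and 269.5 CPM with 7, and it was already at 219 CPM in infarct cells with 2. Krt18 ran from 50.9 CPM with 3 markers to 497.6 CPM with 7. Lrrn4 ran from 31.9 to 443.5 CPM, and Muc16 from 0 CPM, where 3 UMIs over the cells are the limit a count of 0 allows, to 212 CPM. Col1a1, the main fibrillar collagen chain, ran the other way, from 7167 to 2190 CPM. In infarct the cells at the threshold thus carried Wt1 with little of the keratin and mucin genes.

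**Figure D3:**
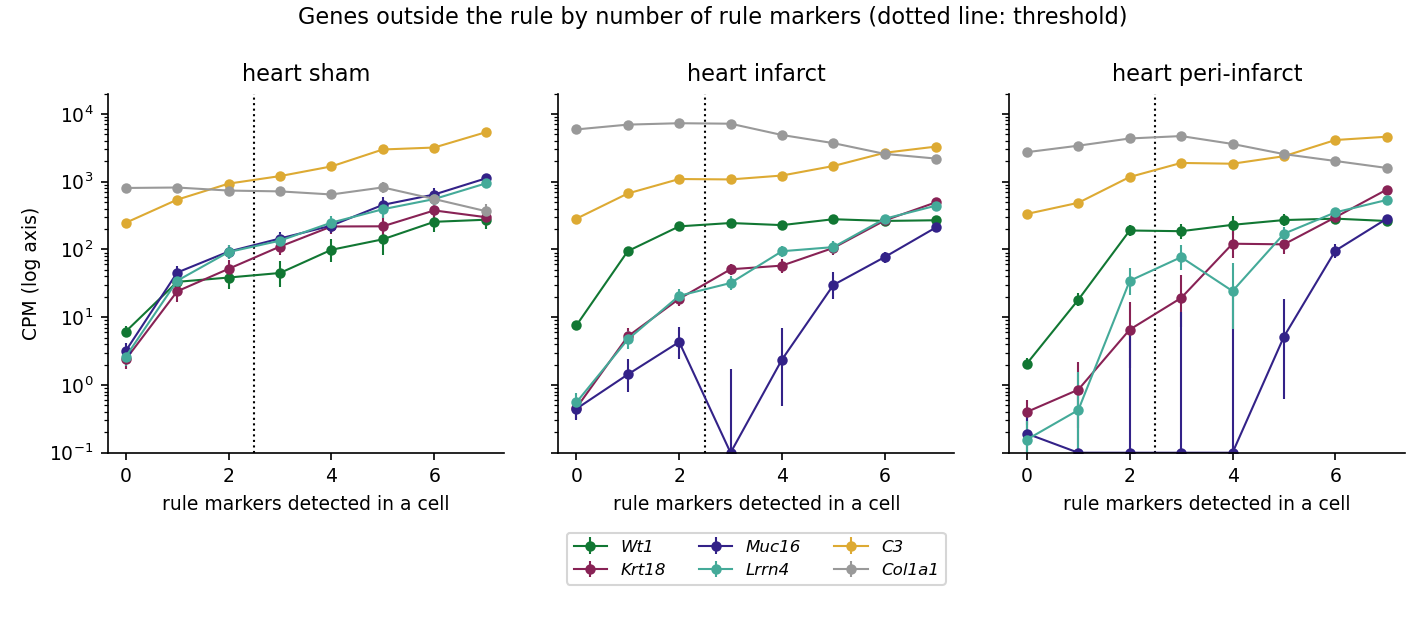
CPM (y axis, log) of 6 genes outside the rule by the number of rule markers detected in a cell (x axis), with 95% Poisson intervals; values under 0.1 CPM are drawn at 0.1. Wt1 is nearly level from 2 to 7 markers in infarct (219 to 269.5 CPM), while Krt18 (18.7 to 497.6 CPM) and Muc16 (4.31 to 212 CPM) are not.

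In sham the picture was different. Wt1 ran from 44.9 CPM with 3 markers to 274 CPM with 7, and Muc16 from 145 to 1116 CPM. Median depth in sham went from 1268 UMIs with 3 markers to 4335 UMIs with 7, so depth moved with marker number there, and its part was not tested. In peri-infarct only 13 members had 3 markers and 8 had 4. Krt18 in peri-infarct ran from 19.2 CPM with 3 markers to 763.8 CPM with 7.

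The 199 infarct members with 3 to 5 markers were set against the 305 with 7. Of 2929 genes compared, 98 were higher (3.35%) and 155 lower (5.29%) in cells with fewer markers. Collagen and matrix genes were higher in 14 of 36 and lower in 1, with a median log2 ratio of 0.79 against -0.06 over all genes. Tnc, which encodes tenascin C of healing matrix, was at 212 CPM with 3 to 5 markers and 15.1 CPM with 7. Lum, a collagen-binding proteoglycan, was at 699.6 and 119.6 CPM, and Col6a3 at 381 and 74.9 CPM. The chemokine Cxcl12 was at 237 and 27.5 CPM. Ctla2a, a protease inhibitor, had the highest ratio, at 214 and 10.1 CPM.

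On the opposite side, keratin and junction genes were lower in 8 of 12, and the mesothelial list outside the rule in 15 of 22; part of this follows from the rule, because these genes go with the markers that were counted. Krt7 was at 2.18 CPM with 3 to 5 markers and 332 CPM with 7, and Krt14, a keratin of stratified epithelium, at 12.4 and 276 CPM. Cldn15 was at 13.3 and 266 CPM. Hpgd, the enzyme that inactivates prostaglandins, was at 20.4 and 244 CPM. Tbx18 was at 26.4 and 81.4 CPM, while Wt1 was at 246 and 269.5 CPM. Of the 199 cells with 3 to 5 markers, 152 lay in the unnamed cluster led by Col6a5 and 31 in the mesothelial-like cluster; of the 305 with 7 markers, 7 and 267 did. Fibroblast markers were higher in 6 of 13 compared in the cells with fewer markers. The summed level of the fibroblast list was 32201 CPM against 17864 CPM, and 43979 CPM in infarct fibroblast-like cells. Those fibroblast-like cells leave out unnamed clusters, among them 2605 infarct cells of a cluster whose highest marker list was the fibroblast list. Doublet calls were 6.03% and 3.28%. The cells with 3 to 5 markers were not uniform: the summed level of the mesothelial list outside the rule was 4191 CPM with 3 markers, 5301 CPM with 4 and 9183 CPM with 5, against 9928 CPM with 6 and 13693 CPM with 7.

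Members of the infarct library were then set against sham members. Of 3116 genes compared, 269 were higher (8.63%) and 365 lower (11.7%) in infarct. With edgeR's TMM factors, whose log2 ratio of infarct to sham was -0.21 and which raise all ratios by that much, the split was 445 higher and 256 lower. Members of the peri-infarct library were set against the same sham members: of 3150 genes, 272 were higher (8.63%) and 332 lower (10.5%), or 397 and 256 with TMM factors (log2 ratio of factors -0.15). Both comparisons use the same 633 sham members and stand side by side. The mix of cells among members differed too. The unnamed cluster led by Col6a5 held 171 infarct members (29.3%), 28 peri-infarct members (9.43%) and 0 sham cells. Library, injury, depth and this mix cannot be told apart here.

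Acute-phase and defence genes had the largest ratios. Saa3, a serum amyloid protein, had 1 UMI in sham members and 21355 in infarct and 9953 in peri-infarct members, that is 0.825, 1710.5 and 1383 CPM. The ratio to sham was 2073 in infarct (exact 95% counting interval 372 to 81898) and 1677 in peri-infarct (301 to 66239). Hp, which encodes the haemoglobin scavenger haptoglobin, had 0 UMIs in sham members, and was at least 68.8-fold higher in infarct (170.4 CPM) and at least 60.8-fold higher in peri-infarct (150.4 CPM), with 3 UMIs over the sham group as the floor. Endothelial-like cells of the infarct and peri-infarct libraries were at 9.46 and 5.83 CPM for Saa3. Of 18 complement and defence genes compared, 7 were higher in infarct members and 9 in peri-infarct members, with median log2 ratios of 0.73 and 1.01 against 0.02 and 0.07 over all genes. Slpi, a secreted protease inhibitor, was at 95.7, 394 and 512 CPM in sham, infarct and peri-infarct members. Lcn2, the iron-carrier lipocalin 2, was at 7.42, 57.2 and 202 CPM, and the complement gene C4b at 60.2, 195 and 234 CPM. C3, already high in sham members, was at 2288, 2536 and 4254 CPM and was called in neither comparison.

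Matrix genes also differed. Of 35 collagen and matrix genes compared, 18 were higher and 3 lower in infarct members (median log2 ratio 1.11), and 11 higher and 4 lower in peri-infarct members (0.36). Fn1, which encodes fibronectin, was at 74.2 CPM (59.7 to 91.3) in sham, 2501 CPM (2474 to 2529) in infarct and 1621 CPM (1592 to 1651) in peri-infarct members. Timp1, an inhibitor of matrix proteases, was at 80.02, 1341 and 2152 CPM. Col1a1 was at 647, 3456 and 1869.5 CPM, and Lox, which cross-links collagen, at 30.5, 333 and 194 CPM. With members of 7 markers alone, Col1a1 was at 368, 2189.6 and 1593 CPM. Cells outside the rule carried these genes too: other cells of the infarct library were at 2073 CPM for Fn1 and 5779 CPM for Col1a1. After thinning to 1000 UMIs, an Fn1 UMI was found in 6.94% of sham members, 79.8% of infarct members and 59.9% of peri-infarct members, and in 11.6%, 23.9% and 15.6% of endothelial-like cells (12.2%, 98.97% and 92.9% of members before thinning). Lum and the elastic fibre gene Fbln5 were lower in both injury libraries. Lum was at 651, 315 and 103 CPM. Lum is also on the list of fibroblast markers. For Col1a1, sham endothelial-like cells were at 435 CPM. The part of transcripts from other cells in these sham levels was not tested.

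The surface layer differed too. Dmkn, which encodes dermokine, was at 61.05, 916 and 1559 CPM in sham, infarct and peri-infarct members, and Lgals7, the epithelial galectin 7, at 60.2, 883 and 1138 CPM. Endothelial-like cells of the 3 libraries were at 2.19, 4.00 and 0.96 CPM for Dmkn. Krt14 was at 33.8, 162 and 306 CPM. Keratin and junction genes were higher in 3 of 11 for infarct members and in 7 of 12 for peri-infarct members, the latter falling to 4 when only members with 7 markers were compared. The hyaluronan receptor Cd44 was at 16.5, 104 and 118 CPM, and Prg4, the joint and serosal lubricant lubricin, at 93.2, 195 and 409.7 CPM. Muc16 was lower in infarct members (127 against 384 CPM) and not called in peri-infarct (231 CPM).

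Transcription factors and secreted signals differed gene by gene. Gata6 and Osr1, a zinc finger factor of the lateral mesoderm, were higher in members of both injury libraries, and Nr2f2, Tbx20 and Sox9 were lower. Osr1 was at 70.1, 152 and 152 CPM. Wt1 was also called higher in both (123, 261 and 261 CPM), but with members of 7 markers alone its log2 ratio was -0.025 in infarct and -0.061 in peri-infarct; sham had 29 such cells. Tbx18 stood at 75.1, 59.5 and 86.03 CPM and Tcf21 at 80.8, 16.3 and 17.5 CPM. For Tcf21 sham endothelial-like cells were at 80.1 CPM, as high as sham members. Wnt4, a Wnt ligand, was at 11.5 CPM (6.31 to 19.4) in sham members, 323 CPM in infarct and 271 CPM in peri-infarct members. Rspo1, at the levels given above, was called in neither comparison. The Wnt inhibitor family member Sfrp2 was at 51.1, 357 and 307 CPM, and the Wnt-modulating matrix protein Cthrc1 at 0.825, 207 and 60.6 CPM. With members of 7 markers Cthrc1 was at 99.5 CPM in infarct and 40.4 CPM in peri-infarct.

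Another set of genes was high in sham members and low after injury. Fgfbp1 was at 267 CPM (239 to 298) in sham, 7.53 CPM (6.08 to 9.21) in infarct and 49.9 CPM (44.9 to 55.3) in peri-infarct members. Slc26a3 was at 140.2, 3.60 and 36.6 CPM, and Npr3 at 229, 14.3 and 47.7 CPM. The peri-infarct value lay between the other two for each of these 3 genes. Sham endothelial-like cells were at 5.35, 2.43 and 7.06 CPM, far below the sham members. Igfbp5 was at 5258, 719.8 and 1598 CPM and Rarres2 at 7133, 675 and 2091 CPM.

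Smooth muscle and pericyte genes were lower as well, and their summed level in sham members was below that in sham endothelial-like cells. Smooth muscle markers were lower in 8 of 8 compared in infarct members and 8 of 8 in peri-infarct members. Myh11, smooth muscle myosin, was at 879 CPM in sham members and 1197 CPM in sham endothelial-like cells, against 18.5 and 19.04 CPM in infarct and peri-infarct members. The summed level of the 10 smooth muscle markers was 5982 CPM in sham members, 6784 CPM in sham endothelial-like and 22508 CPM in sham mural cells, and 986 and 522 CPM in infarct and peri-infarct members. The 10 pericyte markers summed to 1957 CPM in sham members, 3517 CPM in sham endothelial-like cells and 318 and 126 CPM in the injury members. None of these markers was at 0 in members, and the part of free RNA in these differences was not tested. Gsn, the actin-severing gelsolin of resting fibroblasts, was at 11459.8 CPM in sham members and 9884 CPM in sham endothelial-like cells, against 307 and 684 CPM after injury. Immediate early genes, which respond to dissociation, were lower in 5 of 20 for infarct members and 9 of 19 for peri-infarct members, with Fos at 2915, 1269 and 936 CPM in members and 4844, 1496 and 1494 CPM in endothelial-like cells.

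**Figure D4:**
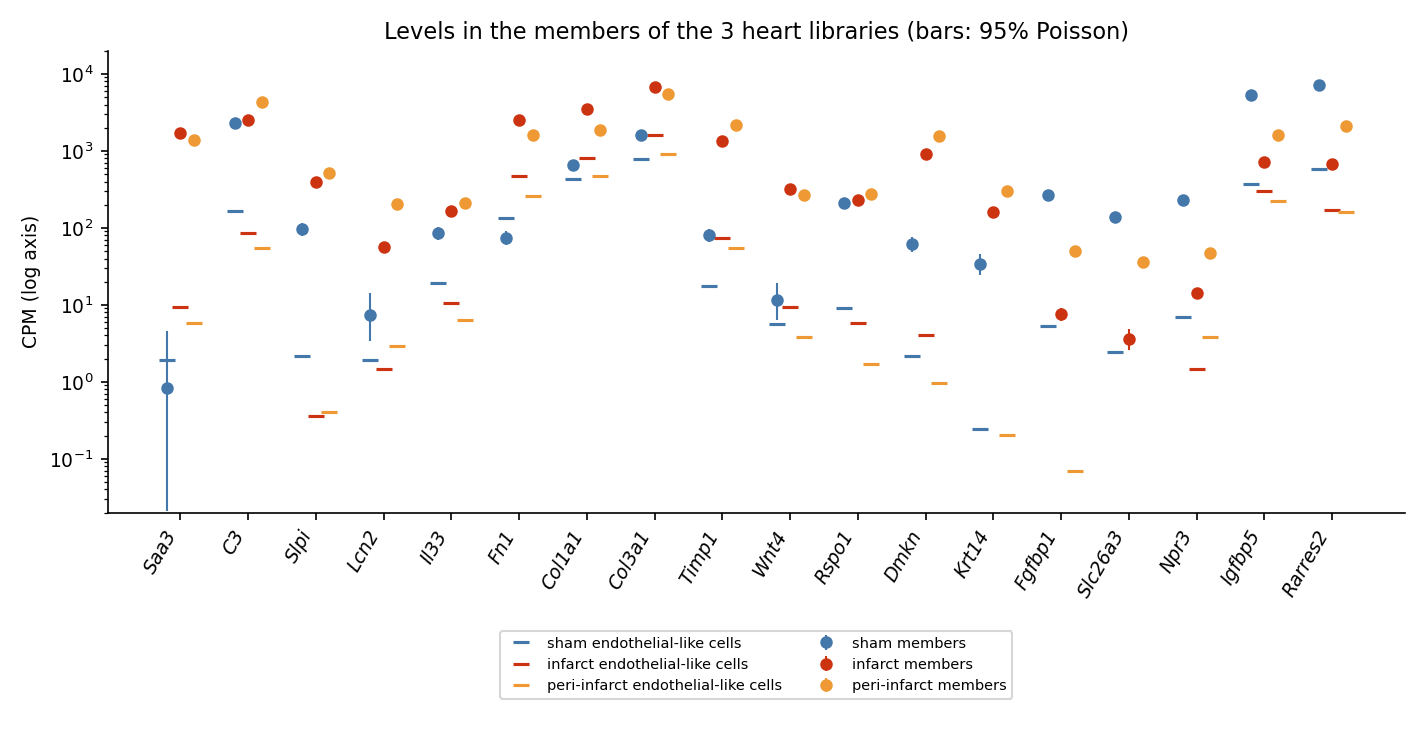
CPM (y axis, log) of 18 genes in sham, infarct and peri-infarct members (points, 95% Poisson intervals) and in the endothelial-like cells beside them (dashes; none where no UMI was found). Saa3, Fn1, Timp1, Wnt4 and Dmkn lie higher in both injury libraries, and Fgfbp1, Slc26a3, Npr3, Igfbp5 and Rarres2 lower, while Rspo1 lies level.

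Members of the 2 injury libraries were set against each other. Of 2987 genes compared, 22 were higher in infarct (0.737%) and 29 lower (0.971%). When cells were thinned to 1000 UMIs before the rule, these counts were 71 and 108. The thinned sums held far fewer UMIs, since member medians were 19151 in infarct and 21139 in peri-infarct before thinning. Counting error is larger in them, and its part in the higher counts was not tested. Without thinning, matrix genes were higher in 6 of 36, namely Tnc, Lum, Col6a3, Col8a1, Mfap4 and Mmp2. The growth factor pleiotrophin, Ptn, was at 145 CPM in infarct and 32.4 CPM in peri-infarct members, and Tnc at 81.4 and 19.9 CPM. With members of 7 markers, Ptn (64.95 and 33.3 CPM), Tnc (15.1 and 4.65 CPM) and Lum (119.6 and 65.3 CPM) were no longer called. On the other side, Slurp1, a small secreted Ly6 protein of epithelia, was at 37.8 and 146 CPM, Lcn2 at 57.2 and 202 CPM, and Rarres2 at 675 and 2091 CPM. With members of 7 markers alone, 12 genes were higher (0.397%) and 19 lower (0.629%) of 3019, and 2 matrix genes were higher. Within the mesothelial-like clusters 9 genes were higher, none of them a matrix gene of the list. Slurp1 (62.9 against 175 CPM), Lcn2 (74.2 against 221 CPM), Prph (163 against 395 CPM) and Rarres2 (943 against 2398 CPM) were still called lower in infarct with members of 7 markers.

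Dividing members were found after injury. Of cells thinned to 1000 UMIs, at least 2 of 8 division genes (Mki67, Top2a, Birc5, Cenpf, Prc1, Ccnb1, Cdk1 and Ube2c) were detected in 0 of 504 sham members (which allows a share of up to 0.595%), 39 of 583 infarct members (6.69%, 4.80 to 9.03) and 17 of 297 peri-infarct members (5.72%, 3.37 to 9.01). The other cells of the same libraries stood at 0.030%, 3.42% and 3.73%. Without thinning the shares of members were 0%, 21.3% and 19.5%. Mki67, a protein of all cycling cells, was at 0, 72.5 and 52.5 CPM in members and 0.806, 51.3 and 75.8 CPM in other cells. Against the floor of 3 UMIs over the sham members, Mki67 was at least 29.3-fold higher in infarct and at least 21.2-fold higher in peri-infarct members. In infarct, cells with 3 to 5 rule markers were at 54.5 CPM and those with 7 at 82.3 CPM. Endothelial-like cells were at 41.1 and 70.1 CPM in infarct and peri-infarct. The unnamed cluster led by histone and division genes held 51 infarct and 20 peri-infarct members and no sham member.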

How the data were processed

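Cells were sorted for tdTomato from 3 heart and 3 brain preparations, and 6 10x libraries (version 3 chemistry, 3′ ends) were made, per the labels' protocols. The authors deposited unnormalized UMI counts for each gene in each barcode, made with Cell Ranger 3.0.2, per the file headers. The submitters' processing notes name the mm10 build and also Seurat 3, without saying for which step. Each table holds 31053 genes. Only the heart libraries were used beyond cell totals. The 3 heart libraries form groups of 1, with tamoxifen given on 4 days in each.

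Cells with at least 500 genes and at most 10% mitochondrial UMIs were kept. Sums of counts over cells were scaled to CPM with a pseudocount of 1 for ratios. Shares were also computed after thinning to 1000 UMIs (seed 1), with cells under 1000 UMIs left out. Intervals are exact Poisson or Clopper-Pearson at 95% (scipy 1.17.1), for counting error only. A group at 0 counts was given a floor of 3 counts. Total UMIs per library range from 32194158 to 107892408, so sham values are the least precise. Doublets were scored with a re-implementation of Scrublet's method and an automatic threshold, which marked 717, 226 and 289 cells in sham, infarct and peri-infarct; none were removed in the main analysis. Clusters used 2000 variable genes, 30 principal components, 15 neighbours and Leiden resolution 1 (igraph 0.11.9), and names came from listed markers. A cluster stayed unnamed when its markers were too low, when none of its leading genes was on its highest marker list, or when more were on another list. The cluster led by Wisp2 and Eln, with 2605 infarct cells, stayed unnamed though its highest list was the fibroblast list. Fibroblast-like cells leave out such unnamed clusters. The call of ratios was tested on simulated data. Gene positions come from GENCODE vM21, matched by identifier for 545 of 545 genes looked up, and promoters from RefSeq.

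The members and the 24 gene lists were chosen with earlier results of these data known. Candidates for naming were the 15 highest and 10 lowest ratios in sham and the 10 highest and 10 lowest of each between-library comparison. Added to these were 13 genes always named and up to 4 members of each list. Of the between-library candidates only part is given in the text. Left out are, for example, Ces1d, Rasd1 and Pln, all lower in infarct members than in sham members. Genes outside this rule, and the comparison by marker number within infarct, were chosen after their values were seen. Alternatives covered the marker rule, cell filters, doublets, thinning, edgeR TMM factors (edgeR 4.0.16, R 4.3.3), the CPM limit and pseudocount, the cells compared, shared barcodes and members with all 7 markers.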

Additional observations from a re-analysis of the deposited data

Results flagged for a closer look

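Some genes were called in opposite directions when members were set against the other cells of their own library, and the differences between libraries were not tested. Gpx3, a secreted glutathione peroxidase, stood at a log2 ratio of 1.29 in the sham library, -1.32 in infarct and -1.04 in peri-infarct. Its level in members was 511, 166 and 179 CPM in the same order, and in other cells 208, 416 and 368 CPM.

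Thbs2, a matrix thrombospondin, stood at 1.11 in sham and -1.36 in infarct, with members at 135 and 87.6 CPM and other cells at 62.1 and 227 CPM. Kdr, a receptor for vascular endothelial growth factor, stood at 1.79 in sham and -1.07 in peri-infarct, with members at 299 and 91.3 CPM and other cells at 85.7 and 193 CPM. The endothelial-like share of the other cells moved with this: 2295 of 12997 other sham cells were endothelial-like, against 362 of 8098 other infarct cells and 1514 of 7659 other peri-infarct cells, and its part was not tested. Cavin2, a protein of caveolae, stood at 1.16 in infarct and -1.13 in peri-infarct, with members at 144 and 121 CPM and other cells at 64.3 and 264 CPM.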

How the results depend on the processing

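No paired analysis was possible because each group is 1 library and the labels carry no replicate numbers. Member shares moved most with the rule: with at least 2 markers they were 8.22% in sham and 8.87% in infarct; with at least 4, 2.36% and 5.49%; without Gpm6a, 3.65% and 5.75%; without Krt8, 5.87% in infarct. With at least 1000 genes per cell the sham share was 6.09%, with up to 20% mitochondrial UMIs 5.25%, and with up to 5% the peri-infarct share was 4.37%. After thinning before the rule, with cells under 1000 UMIs left out, shares were 3.11%, 2.73% and 2.76%. Members with all 7 markers were then 0.306%, 2.54% and 3.21% of members in sham, infarct and peri-infarct. Infarct against peri-infarct gave 71 genes higher and 108 lower, 3 of them matrix genes that were higher, from sums of far fewer UMIs.

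Counts of genes depended on the limits used. The number of genes compared also changes with the setting, and the counts in this section stand without it. They are therefore not shares of the genes compared. Genes higher in sham members than in other sham cells numbered 257 with at least 4 markers, 332 at a mean of 20 CPM and 89 at 100 CPM. Genes lower numbered 5 with at least 2 markers, 100 with at least 4, 54 with at least 1000 genes per cell, 29 with up to 5% mitochondrial UMIs, 61 and 4 at means of 20 and 100 CPM, 56 against fibroblast-like cells, 7 with cell-wise mean CPM and 33 without doublet calls. At means of 20 and 100 CPM, infarct members against sham gave 510 and 153 genes higher and 750 and 167 lower, peri-infarct members against sham 499 and 165 higher and 696 and 161 lower, and infarct against peri-infarct 47 and 9 higher and 60 and 15 lower. TMM factors gave 445 genes higher in infarct than in sham members. With members of 7 markers, an alternative chosen after the data were seen, 591 genes were lower in infarct and 539 in peri-infarct than in sham members, 4 keratin and junction genes were higher in peri-infarct, and infarct against peri-infarct gave 12 higher, 19 lower and 2 matrix genes higher; within the mesothelial-like clusters these were 9 higher and 0 matrix genes.

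Directions turned for Cldn5 (1.28), Egfl7 (0.93), Srgn (0.81), Apold1 (0.10), Ptprb (0.93) and Flt1 (1.12) against fibroblast-like cells. The sign also turned for Wt1 with members of 7 markers, but to near level (-0.025 in infarct and -0.061 in peri-infarct against sham). The 29 sham members with all 7 markers had a median of 4335 UMIs, against 1459 UMIs in all sham members. The cause of these turns was not tested. Only part of the called genes named here were run under the alternatives, along with some called genes that are not named here. The called genes run were 29 for sham members against other sham cells and 20 for infarct against peri-infarct members. For infarct and for peri-infarct members against sham members they were 23 each. Among the genes run, no other direction turned in the 4 comparisons. Whether the directions of the remaining called genes hold under the alternatives was not tested. Tnc had no UMI in members of any heart library when cells were thinned before the rule, so it has no ratio there. Depth limits sham most, where 29 members had all 7 markers.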

Other observations

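Sham members carried 2 genes better known from endothelial cells. They were the only 2 higher of 9 endothelial markers compared with other sham cells. The other direction held for 4, namely Cldn5, Egfl7, Flt1 and Fabp4, and the median log2 ratio of the 9 was -0.99. Aqp1, a water channel, was at 592 CPM in sham members, 208 CPM in sham endothelial-like cells and 27.8 CPM in fibroblast-like cells. Kdr was at 299 CPM in members and 317 CPM in endothelial-like cells. Infarct and peri-infarct members were at 51.3 and 151 CPM for Aqp1. Cells with a Cdh5 UMI had been left out, and the 11 endothelial markers summed to 2119 CPM in sham members and 9365 CPM in endothelial-like cells. Both genes were chosen after their values were seen.

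Ptgs1 and Hpgd, genes of prostaglandin synthesis and breakdown, were called higher in members of all 3 libraries. Ptgs1, which makes prostaglandin H2, was at 102, 257 and 311 CPM in sham, infarct and peri-infarct members and 8.46, 10.4 and 9.09 CPM in other cells. Hpgd was at 181, 153 and 389.9 CPM and 14.9, 5.08 and 7.94 CPM. Ptgis, the prostacyclin synthase, was at 381, 1139 and 1351 CPM in members and 253, 422 and 422 CPM in other cells, and was not called in sham. Ptgs2, the inducible counterpart of Ptgs1, was at 31.3 CPM in sham members and 78.6 CPM in sham fibroblast-like cells, lower in members. The myelin gene Mbp was at 68.5, 78.9 and 109 CPM in members and 4.03, 3.45 and 1.89 CPM in other cells.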
